A study of Mus musculus with 2 samples.

Results

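The MYC and MXD network is the group of 10 genes Myc, Mycn, Mycl, Max, Mga, Mnt, Mxd1, Mxd3, Mxd4 and Mxi1, examined here in a Sap130 peak list from embryonic mouse heart. Members were taken from the list by name, as peaks whose gene annotation equals the member's symbol. This gave 19 of 16697 peaks, named for 9 of the 10 genes. Mycl is listed under its older symbol Mycl1, with an accession that the reference gene table gives to Mycl. Its peak is described as a 20th, and it is left out of every count that is by name. The list comes from ChIP-seq (sequencing of immunoprecipitated chromatin) on hearts of wild-type B6 mouse embryos, with 1 library from a Sap130 antibody, labelled E13.5, and 1 library of input chromatin, labelled E13.6. No library was replicated, so no value has an error between hearts and no test was possible. The list gives positions and an order, with no peak height, read depth or p-value in the columns used here, and a place in it is called a position, counted from 1 at the top.

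The proteins of this network share a basic helix-loop-helix leucine zipper that binds DNA at the E-box CACGTG as a pair with MAX. MYC, MYCN and MYCL pair with MAX to activate genes of growth and division. MXD1, MXD3, MXD4, MXI1 (also called MXD2) and MNT pair with MAX at the same E-boxes, and each carries a short Sin3 interaction domain by which it brings in the SIN3A or SIN3B scaffold and its histone deacetylases. Sap130 is a subunit of that Sin3 complex. MGA is a large MAX partner with a T-box as well as the zipper domain and belongs to a variant Polycomb complex. The peaks below lie at the genes that encode these proteins, so they show where Sap130 was found near the recruiters' own genes, not where the recruiters bound.

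Sequence at the start sites is shown because all 5 genes of Sin3 recruiters had a peak there and only some of their start regions hold the network's own E-box. RefSeq windows of 300 bases (GRCm38.p6, 250 before the start site and 50 from it on) were found for 9 members, in 11 windows, and all 11 were touched by a peak. CACGTG occurred in the windows of 3 members, Mxd4, Mnt and Max, once each and each inside a peak. The motif reads the same on both strands. Of 20418 windows of protein-coding genes, 8.05% held it, and 11.21% of the 10377 that a peak touched. In the bases before the start site of Mxd4 (chr5:34187711-34187960, minus strand) and Mnt (chr11:74830674-74830923, plus strand), and in 30 bases across the start site of Max (chr12:76962234-76962263, minus strand), capitals mark the E-box.

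Mxd4: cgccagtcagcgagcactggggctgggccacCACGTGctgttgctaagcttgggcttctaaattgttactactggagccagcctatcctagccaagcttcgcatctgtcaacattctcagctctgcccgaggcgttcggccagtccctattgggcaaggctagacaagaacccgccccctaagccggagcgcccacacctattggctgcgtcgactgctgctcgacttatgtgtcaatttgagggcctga

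Mnt: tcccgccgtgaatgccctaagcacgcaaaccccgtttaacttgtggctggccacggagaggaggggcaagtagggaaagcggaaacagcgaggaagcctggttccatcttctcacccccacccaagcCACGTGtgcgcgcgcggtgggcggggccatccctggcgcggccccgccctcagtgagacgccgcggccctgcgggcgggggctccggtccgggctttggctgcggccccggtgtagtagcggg

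Max: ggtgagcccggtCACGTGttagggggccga

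Counted from the start site, with upstream bases negative, the E-box began at -219 in Mxd4, at -123 in Mnt and at -3 in Max. The variant E-box CACGCG, read on either strand, occurred in the windows of Mga and Mycl, and in 12.54% of windows of protein-coding genes, or 20.99% of those touched by a peak. It began at -21 in Mga, where it lay outside the named peak, and at -20 from the RefSeq window's start site in Mycl, inside the peak. That start site lies 168 bp before the one the peak list names. In the 30 bases around the variant at Mga (chr2:119897195-119897224, plus strand) and Mycl (chr4:122995899-122995928, plus strand), capitals mark its letters.

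Mga: agctggtaggagCGCGTGcgcagtgacgtg

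Mycl: ccaagccccgggCACGCGacgagatataaa

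Mxd1, Mxd3, Mxi1 and Mycn had neither form in their windows. Among the members' windows, those of Mxd1 and Mxd3 held the most copies of the GC box GGGCGG, the letters bound by SP and KLF factors. Counted on both strands and with overlapping copies counted separately, it occurred 6 times in the window of Mxd1 and 8 times in that of Mxd3. The windows of Mxi1 held 9 copies together, and that of Mnt, which also has an E-box, held 4. A GC box was in the windows of 8 of the 9 members, all but Max. By window it was in 10 of 11, against 72.39% of protein-coding windows touched by a peak and 22.26% of those with none. Capitals mark the GC boxes before the start sites of Mxd1 (chr6:86669160-86669409, minus strand) and Mxd3 (chr13:55329732-55329981, minus strand).

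Mxd1: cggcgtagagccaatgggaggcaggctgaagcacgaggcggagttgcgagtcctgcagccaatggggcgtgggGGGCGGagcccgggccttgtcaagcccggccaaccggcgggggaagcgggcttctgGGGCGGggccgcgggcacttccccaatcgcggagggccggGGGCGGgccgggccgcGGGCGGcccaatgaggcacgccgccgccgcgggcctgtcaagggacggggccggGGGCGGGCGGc

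Mxd3: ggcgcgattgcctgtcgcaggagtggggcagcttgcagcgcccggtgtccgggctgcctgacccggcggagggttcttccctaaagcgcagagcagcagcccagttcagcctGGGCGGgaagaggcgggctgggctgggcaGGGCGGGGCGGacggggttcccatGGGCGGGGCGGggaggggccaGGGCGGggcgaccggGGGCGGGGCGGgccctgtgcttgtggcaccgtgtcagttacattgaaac

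Mycn, the member with the largest share of its span under peaks, held the E2F letters TTTGGCGC or TTTCGCGC 3 times, on either strand. The copies that begin at -183 and -179 overlap. Some form of these letters was in 1.1% of windows of protein-coding genes and 1.74% of those touched by a peak. They were searched for after the sequence had been seen. In the 250 bases before the start site (chr12:12941837-12942086, minus strand) capitals mark them. All 3 lay in the 437 bp gap between a peak that ends 101 bp upstream of the start site and one that begins 538 bp upstream.

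Mycn: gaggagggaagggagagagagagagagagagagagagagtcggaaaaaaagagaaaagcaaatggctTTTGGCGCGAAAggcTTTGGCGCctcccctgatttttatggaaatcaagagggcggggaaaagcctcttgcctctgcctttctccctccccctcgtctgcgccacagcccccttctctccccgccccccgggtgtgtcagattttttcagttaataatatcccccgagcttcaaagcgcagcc

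Peaks sat at the start of nearly every gene of the network. A promoter peak, one whose midpoint lies no more than 1 kb from its named start site, was listed for 8 of 10 members by name (all but Myc and Mycl), and for 50.6% of 20953 protein-coding genes. A named peak at any distance up to 10 kb was listed for 9 members and for 52.6% of those genes. The start site itself lay inside a peak at 7 members, against 43% of genes. As listed, 5 members had 2 or more peaks, against 12.2% of all protein-coding genes and 23.1% of the 11031 with any named peak. Mycn and Mxi1 had 4 each, as 1.03% of genes had 4 or more. Many of these peaks lay close together, with gaps of 185, 138 and 437 bp at Mycn, 148 at Mxd1, 68 at Mxd3 and 115 at Mxi1. Merging peaks less than 500 bp apart left 13 peaks by name. Genes with several peaks were not recounted after merging, among members or all genes. With Mycl1 counted as Mycl, the counts were 10 members with a peak, 9 with a promoter peak and 8 with the start site inside one.

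**Figure D1:**
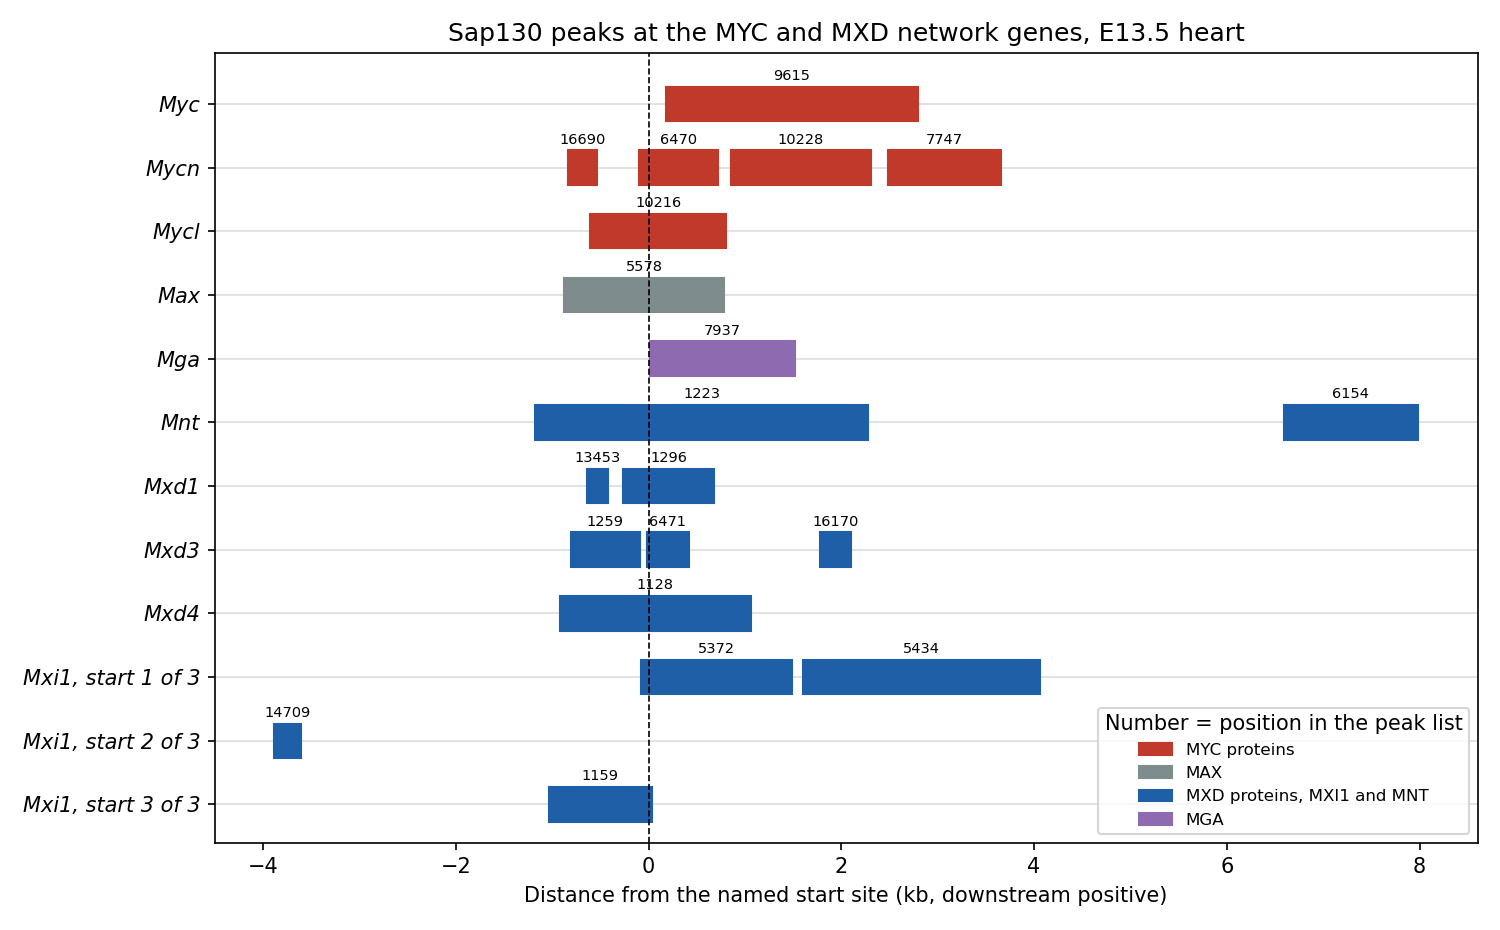
Peaks named for the network genes, drawn as bars from edge to edge against distance from the named start site in kb, with downstream to the right and the dashed line at the start site. Each line is 1 gene, or 1 of the 3 start sites of Mxi1, colours mark the protein's role and numbers give the position in the list. The bar of Myc begins 180 bp downstream of its start site, while that of Mxd4 spans its start site from 920 bp upstream to 1061 bp downstream.

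The genes of the Sin3 recruiters were the members highest in the list. Their first peaks stood at positions 1128 (Mxd4), 1159 (Mxi1), 1223 (Mnt), 1259 (Mxd3) and 1296 (Mxd1). Those of the other 5 members stood at 5578 (Max), 6470 (Mycn), 7937 (Mga), 9615 (Myc) and 10216 (Mycl), so the positions of these groups did not overlap. All 5 recruiter genes and none of the other 5 had a peak among the first 1670 positions of the 16697. Of all protein-coding genes 7.64% had one there, and 14.5% of those with any named peak. This threshold and the split by role were looked at with the positions known, and the list is 1 peak call, so this is a description of it. What the authors sorted the list by is not stated, and the later peaks of the same recruiter genes ranged from 5372 to 16170.

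**Figure D2:**
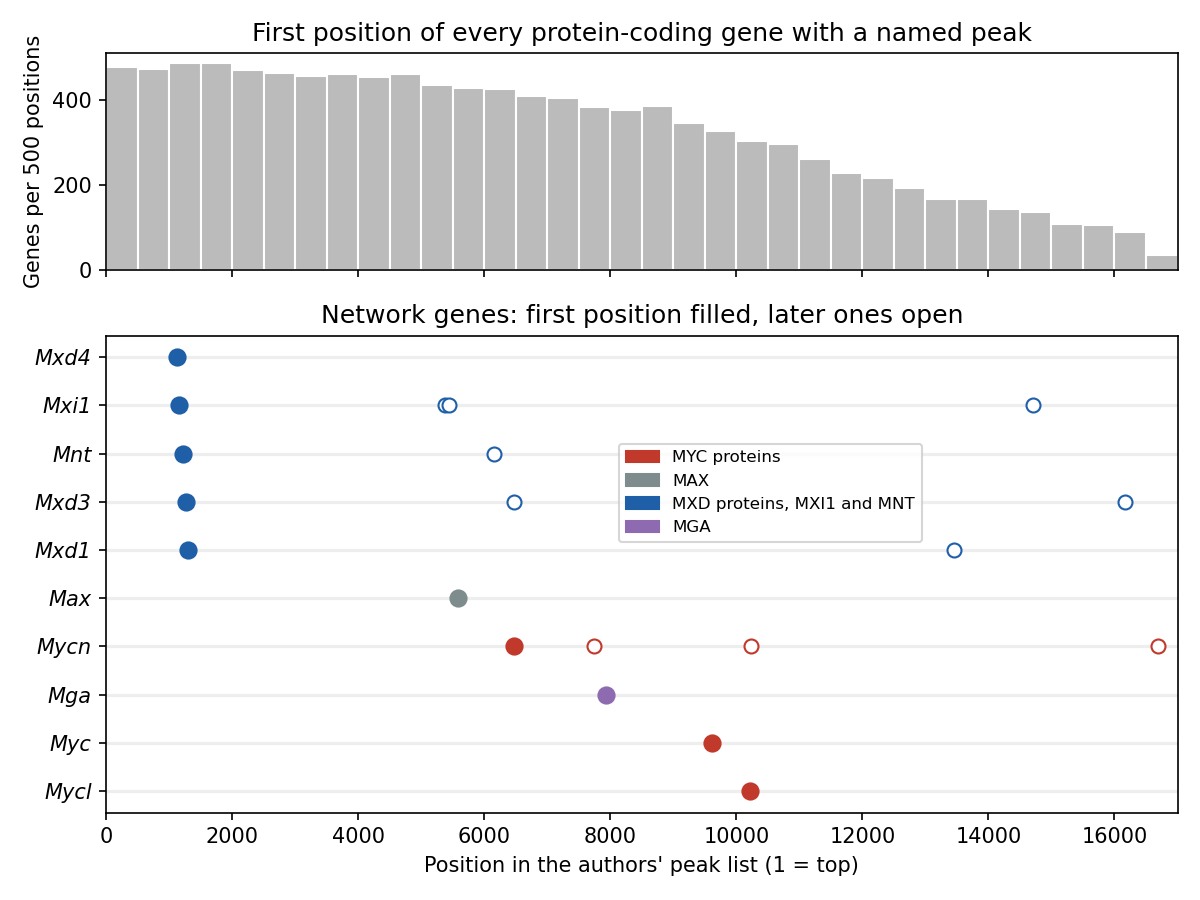
Upper panel, number of protein-coding genes by the position of their first named peak, in steps of 500 positions (the last step is incomplete). Lower panel, positions of the network's peaks on the same axis, with each gene's first peak filled and its later peaks open. The first peaks of Mxd4, Mxi1, Mnt, Mxd3 and Mxd1 lie between 1128 and 1296, and that of Max, the next gene, at 5578.

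Neighbouring positions need not differ in strength. Of 16696 pairs of neighbouring positions, 91% ran upward in chromosome name, sorted as text, and then in start coordinate. The share was 70.2% in the top 1670 pairs and 97.2% in the last 1670. The list is therefore made of many short runs sorted by place: Mycn at 6470 and Mxd3 at 6471 fell in the same run, from 6465 to 6475. Whether the peaks of a run share a score is not stated. The 5 first peaks of the recruiter genes fell in 5 different runs, of 2 to 8 positions.

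Mxd4, a repressor linked to differentiating cells, had a single peak, centred almost on its start site. It lay at chr5:34186649-34188630, 1981 bp wide, wider than 96% of all peaks in the list. Its midpoint was 70.5 bp downstream of the start site at 34187710, and the peak ran from the upstream region through exon 1 into exon 2. It was the highest of the 20 peaks, at position 1128.

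Mnt, the MAX partner expressed most widely and independent of the growth state of the cell, had the widest peak of the network. The peak at chr11:74829750-74833202 was 3452 bp wide, wider than 99.8% of all peaks, and ran from 1174 bp upstream of the start site to 2278 bp downstream, in intron 1. Coding bases made up 72 of these. A second peak, 1385 bp wide at position 6154, lay far inside the gene at chr11:74837519-74838904. It was centred in intron 4, 7287.5 bp downstream of the start site, and covered 111 coding bases of exon 4.

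Mxd1, the founding repressor of the family and one that rises as cells leave the cell cycle, had 2 peaks at its promoter. The higher in the list (1296, chr6:86668476-86669427, 951 bp) held the start site and reached 683 bp downstream, to exon 2. The other, at position 13453, was 222 bp wide and lay 148 bp further upstream, centred at -527 bp. Only 3.9% of peaks in the list were narrower than this one.

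Mxd3, which is expressed in proliferating cells, had its highest peak just outside the transcript that the list names. This peak (position 1259, chr13:55329819-55330539, 720 bp) was centred at -449 bp and ended 89 bp short of the start site at 55329730. The annotated span of Mxd3 in the RefSeq table, on the minus strand, begins at 55329900, inside this peak. A second peak of 441 bp (position 6471, chr13:55329310-55329751) held the start site, and 68 bp separated the pair. The remaining peak, of 319 bp at position 16170, lay in intron 4, centred 1939.5 bp downstream. The GC boxes of Mxd3 fell on both sides of the edge of its upstream peak, with 3 of the 8 fully inside it.

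Mxi1, which encodes the MXD2 repressor, had 4 peaks spread over 3 annotated start sites, at 53310506, 53329413 and 53330446 on chromosome 19. The highest peak (position 1159, chr19:53329410-53330483, 1073 bp) spanned both of the inner start sites, which are 1033 bp apart. It began 3 bp before the first of them and ended 37 bp past the other, for which it is named, and its midpoint lay 533.5 bp from the former and -499.5 bp from the latter. The outer start site, 18907 bp upstream of the next, carried a peak of 1565 bp at position 5372 (chr19:53310428-53311993) that contained it. A second, of 2464 bp at position 5434, followed 115 bp further downstream in intron 1. The fourth peak, of 280 bp at position 14709, was centred at -3741 bp from the start site at 53329413. Together the 4 peaks covered 5382 bp, the largest sum of any member.

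Max, the shared partner of the others, had a single peak of 1656 bp at position 5578 (chr12:76961466-76963122). It was centred at -46 bp, held the start site and reached 782 bp downstream, into intron 1. Mga also had a single named peak, of 1510 bp at position 7937 (chr2:119897240-119898750). It began 12 bp downstream of the named start site and ran 1522 bp into the gene, nearly all of it in intron 1 (1404 bp).

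Another peak lay at the far 5′ end of Mga but carries no gene name. It was 1163 bp wide, at position 10009 (chr2:119872344-119873507). The annotated span of Mga in the RefSeq table begins inside it, 159 bp from its lower edge and 24725 bp upstream of the start site that the list names. That span covers all transcripts of the gene, predicted ones included. With no gene named for it, the peak is in none of the counts above.

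The first peaks of the genes of the MYC proteins themselves stood lower in the list than those of the Sin3 recruiters. Each had a peak that extended into the transcribed region, as every other member did. Myc had 1 peak, of 2616 bp at position 9615 (chr15:61985521-61988137), wider than 99% of all peaks. It began 180 bp downstream of the start site at 61985341 and ended 2796 bp downstream. It took in part of exon 1, intron 1 and 659 coding bases of exon 2, in all 52.1% of the transcript's span. Its midpoint, 1488 bp downstream, put it outside the 1 kb promoter window, and no peak of the list held the Myc start site.

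Mycn, which embryonic heart muscle needs for its growth, had 4 peaks in a row, and those inside the gene covered 58% of its span. From upstream to downstream they were 298, 818, 1448 and 1165 bp wide and stood at positions 16690, 6470, 10228 and 7747. The second of these (chr12:12941119-12941937) held the start site and lay mostly in intron 1. The next (chr12:12939533-12940981) covered 783 coding bases of exon 2. The last (chr12:12938183-12939348) lay wholly in intron 2, centred 3070.5 bp downstream. Gaps of 437, 138 and 185 bp separated them.

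Mycl, listed as Mycl1, had a single peak of 1408 bp at position 10216 (chr4:122995494-122996902). It was centred 99 bp downstream of the named start site at 122996099 and held it, with 605 bp upstream and the other 803 bp all in exon 1. The peaks of the 3 MYC genes had a median width of 1286.5 bp over 6 peaks, and those of the 5 recruiter genes one of 1012 bp over 12. Over all 20 peaks the median was 1275 bp, against 682 bp in the whole list, and 15 were wider than that.

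In CpG content the network's start regions had the same median as other bound ones. The 11 windows held 14 to 49 CpG dinucleotides, with a median of 24. Windows of protein-coding genes touched by a peak also had a median of 24 (quartiles 17 and 31), and those with no peak one of 4. Mycn had the lowest count, 14, and a window of Mxi1 the highest, 49. That window belongs to a RefSeq start at 53329695, 282 bp from the named start site at 53329413, and no window was given for the start site at 53330446. The share of a window's 300 bases under a peak ran from 38 bases at Mga to all 300 in 6 windows.

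**Figure D3:**
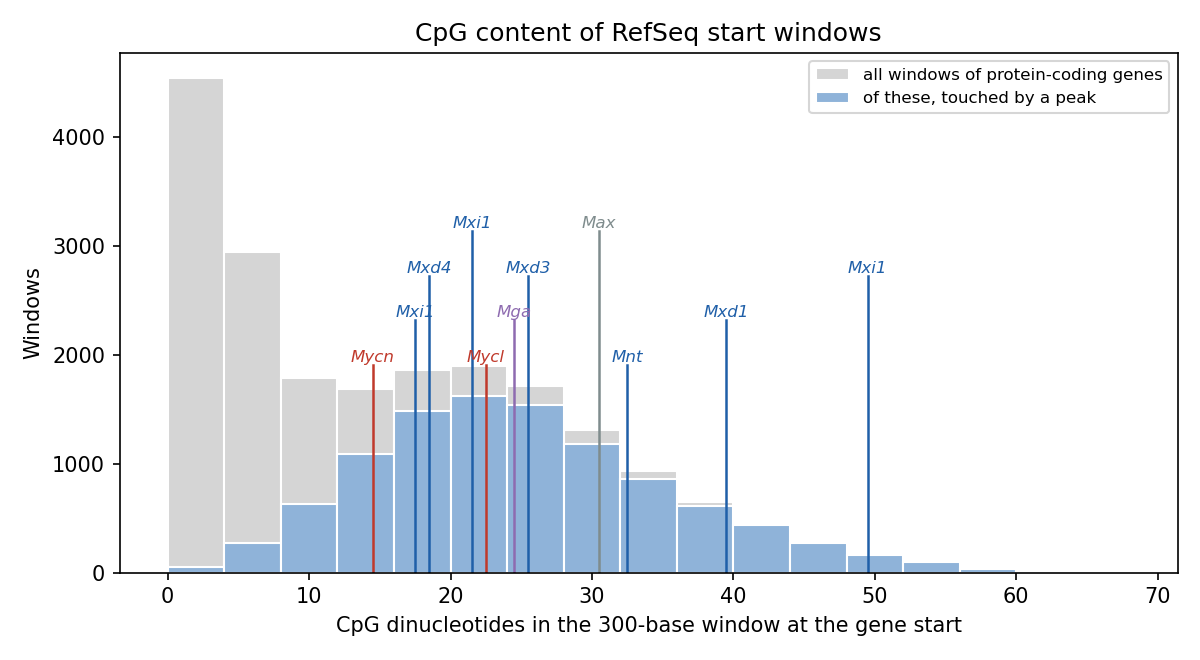
CpG dinucleotides per 300-base RefSeq window on the horizontal axis and number of windows on the vertical axis, for all protein-coding genes (grey) and those touched by a Sap130 peak (blue, drawn over the grey). Vertical lines mark the 11 windows of 9 network members in the colours of their roles, and their heights are for legibility only. The lines run from 14 (Mycn) to 49 (Mxi1) and lie where most windows are touched by a peak.

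Lists of genes that work with the network were chosen from textbook knowledge, with earlier results of these data known. Their genes were not drawn at random, so the intervals given for them do not test a difference from all genes. Most of the listed genes carried promoter peaks too, set beside the 50.6% of all protein-coding genes that had one. Both Sin3 scaffolds did, Sin3a at position 1649 with 4 named peaks and Sin3b at 3222 with 1. In the parallel MLX branch, where the nutrient-responsive factors MondoA and ChREBP pair with MLX in place of MAX, all 3 genes did: Mlxip (MondoA) at 1054, Mlx at 3106 and Mlxipl (ChREBP) at 11745. Their widths were 1599, 493 and 239 bp. Cofactors and turnover factors of MYC had promoter peaks in 18 of 18 cases (95% exact Clopper-Pearson interval 81.5 to 100%, counting error only). The first were Actl6a (363), a subunit of MYC-bound acetyltransferase complexes, Zbtb17 (538), which encodes the MYC partner MIZ1, and Ep400 (897), a remodelling ATPase. The 10 partners of MGA in its Polycomb complex all had one as well (69.2 to 100%), led by Wdr5 (109), Rybp (1220) and Yaf2 (1449).

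Textbook targets of MYC had promoter peaks in 17 of 20 cases, 85% (62.1 to 96.8%), against the 50.6% of all protein-coding genes. A named peak among the first 1670 positions was listed for 14 of 20. The share was 7.64% of all protein-coding genes and 14.5% of those with any named peak. For Eif4a1, an initiation factor gene, that peak lay outside the promoter window. Of the other lists, 5 of 10 MGA partners and 6 of 18 MYC cofactors had a named peak among the first 1670 positions. So did 1 of 3 MLX branch genes, 1 of 2 Sin3 scaffolds, 2 of 9 other E-box factors and no heart marker. This threshold was looked at with the positions known. Ncl, which encodes nucleolin, stood at 3, Nop56, a core protein of small nucleolar ribonucleoproteins, at 44, and the spermidine synthase gene Srm at 45. Eif4e and Eif2s1 had no named peak. Ccnd2, the gene of cyclin D2, had 4 named peaks but none centred within 1 kb, the nearest at -1037.5 bp. Other E-box factors of the same structural class had promoter peaks in 8 of 9 cases, led by Tfap4 (550), Srebf1 (592) and Usf1 (2777), and Tfec had no named peak. These lists are of housekeeping and regulatory genes. The CpG content of their starts was not counted, and its part in their counts of peaks was not tested.

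**Figure D4:**
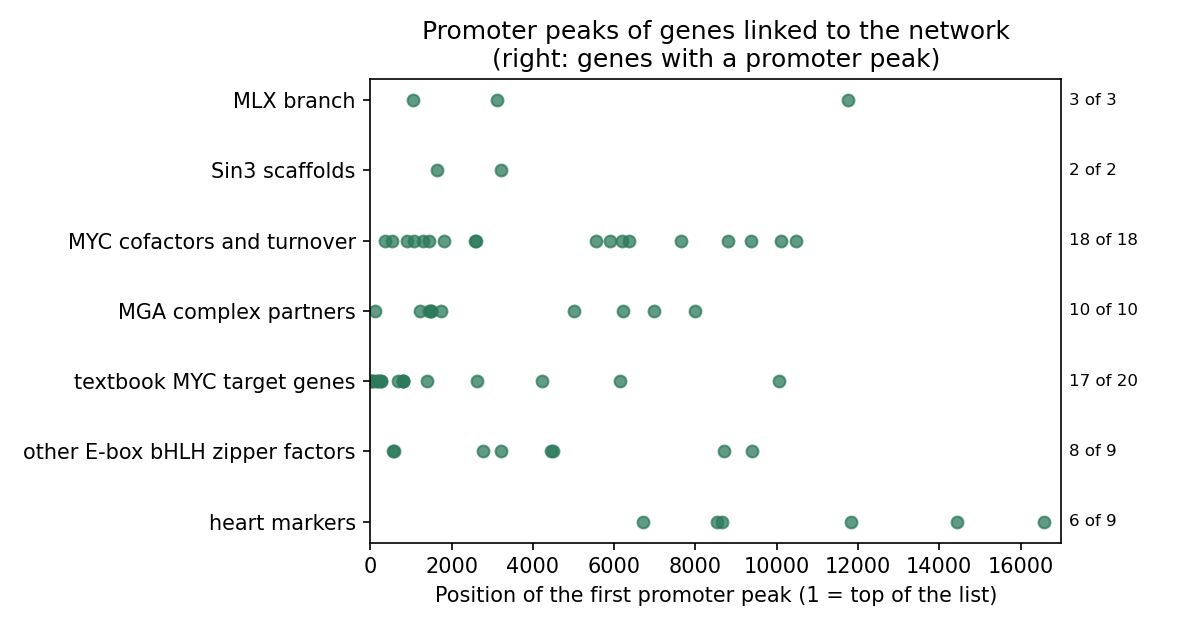
Each point is the first promoter peak of 1 gene, placed by its position in the list (top of the list at the left), with 1 line per gene list and the number of genes with a promoter peak at the right. Points of the textbook MYC targets gather near the left edge, with 13 of 17 within the first 1670 positions, while the heart markers begin at 6705 (Gata4).

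The tissue label cannot be checked by expression here, as occupancy does not measure cell type. Of 9 genes that mark heart muscle, 8 had a named peak, against 52.6% of protein-coding genes. A promoter peak was listed for 6, 66.7% (29.9 to 92.5%), against 50.6% of all such genes. The interval holds that share, but it covers counting error only, as the genes were not drawn at random. The first were Gata4 (6705), Actn2 (8536) and Nkx2-5 (8663). Tbx5 and Tbx20 had named peaks centred beyond 1 kb, and Mef2c had none. A start site of Tbx20 still lay inside a named peak. With any base of a peak within 1 kb counted, 8 of the 9 had a promoter peak.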

How the data were processed

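One Sap130 ChIP library and one input library of embryonic mouse heart were compared by the authors in 1 peak list. The submitters' processing notes name Bowtie 1.1.2, MACS2 2.1.0.20140616 and the builds GRCm38 and mm10. Settings, read filters and the way genes were named are not stated there, and they could change the number, width and names of peaks. The deposited table holds, per the file headers, a number, chromosome, start, end, strand and annotation, and unnamed columns with the transcript. It gives no read counts, so the depth is unknown.

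Members were the peaks whose annotation equals a member's symbol. The start site was the transcript's start, or its end on the minus strand, plus 1. Distances are from a peak's midpoint, and width is end minus start. Peak coordinates are as deposited and uncertain by 1 bp. Genes of the background (20953 protein-coding genes with a curated transcript on the autosomes and X) and of the lists were matched by accession (14986 peaks), symbol (135) or synonym (25) to a RefSeq table of GRCm38.p6, and 25 peaks did not match. Members, lists and alternatives were chosen with earlier results of these data known. Every member is named; of each list, the 3 genes highest in the list and up to 3 without a promoter peak are named. Promoter windows and motifs are from RefSeq sequence, with both strands searched. The placing of peaks was tested on simulated data. Calculations used Python 3.11.15, pandas 2.3.3, NumPy 2.4.6, SciPy 1.17.1 and matplotlib 3.10.9.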

Additional observations from a re-analysis of the deposited data

How the results depend on the processing

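None of the counts of the network's peaks that were rerun moved by over 1.5 times under any alternative. The counts of members with several peaks were not rerun with close peaks merged. Members with a named peak numbered 8 to 10, and members with a promoter peak 6 (500 bp window) to 9 (3 kb window, or any base of the peak within 1 kb). Peaks named for members numbered 13 to 20, with 13 when those less than 500 bp apart were merged and 13 in the first 8348 positions. Members with the start site inside a peak numbered 6 to 8, with 8 when peaks were extended by 100 bp. Matching by accession, which adds Mycl, was chosen after seeing the data. The share of all protein-coding genes with a promoter peak moved from 50.6% to 45.5% with a 500 bp window, 51.7% with 3 kb, 34.4% in the first 8348 positions and 33.6% among peaks of median width or more. In that last setting 1 of the 3 MLX branch genes and 3 of the 9 heart markers had a promoter peak, and 1 heart marker did in the first 8348 positions. An E-box was in the windows of 3 members as CACGTG, 5 with CACGCG added and 7 as CANNTG. No stricter q value could be applied, as the columns used hold none. With 1 ChIP library, no replicate could be left out. No paired analysis was possible because there is 1 library of each kind.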

Other observations

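The distance from a member to the nearest peak that is not its own varied widely, and was largest at Max (99155 bp, a peak named for Fntb) and Mnt (50592 bp, Sgsm2). The peak nearest to Myc outside the gene was 47385 bp past its end, at the start of the non-coding gene Pvt1 (position 10256, chr15:62037746-62038208, 462 bp). On the other side the nearest was 1160279 bp away, named for Fam84b. The nearest to Mycn was 335 bp wide, with no gene named for it, 31186 bp beyond the 3′ end of Mycn (position 11168, chr12:12904572-12904907). The next nearest, named for Ddx1, was 306754 bp away on the upstream side.

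For 3 members a promoter peak of another gene lay within 10 kb. Prelid1 had one at position 1848, 2373 bp beyond the 3′ end of Mxd3, Poln one at 7001, 6710 bp beyond that of Mxd4, and Mapkbp1 one at 5109, 2199 bp beyond that of Mga. The nearest peaks to Mxd1 and Mxi1, named for Snrnp27 and Smndc1, lay 14897 and 16364 bp away. Next to Mycl, 13940 bp past its end, stood the promoter peak of Trit1, a tRNA-modifying enzyme gene, at position 982, above all 20 peaks of the network.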
